A study of Rattus norvegicus and Mus musculus with 251 samples.

Results

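The 5 genes described here are Ccn1, Trib1, Ier2, Klf4 and Wwox, out of 46078 genes in the mouse count table. They were selected on the stage effect of morphine, its log2 fold change against saline, which an earlier fit of these same counts had found to differ between the prefrontal cortex (PFC) and the nucleus accumbens (NAc). Their stage effects and region differences are therefore given as descriptions, with no test. All 5 passed the filter on low counts, which left 19266 genes over both regions, 17966 in PFC and 18382 in NAc.

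The study sequenced total RNA from brain punches of 0.5 mm taken from 2 rodent species at several times of opioid taking and after it. The C57BL/6J mice (an inbred strain) were of both sexes and drank either a saline or a morphine solution. In PFC there were 6 libraries labelled Sal (saline), 8 labelled Chronic mor (chronic morphine), 9 labelled Mor + 24h (24 h after morphine) and 7 labelled Mor + 2W (2 weeks after). In NAc the same groups held 7, 8, 9 and 8 libraries. Each group had 3 or 4 libraries labelled female and 3 to 5 labelled male. The labels give no dose, no duration of drinking and no age, and all groups share 1 mouse batch label. They do not say whether a library is 1 animal, so p-values measure the spread between these libraries. The same study's rat libraries are not analysed here, since their identifiers could not be paired with gene names.

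Library totals ran from 22387525 to 43963295 counts, apart from the PFC library numbered 10 (2 weeks, female) with 5182601 counts and 21.1% of its reads not aligned. The libraries numbered 27 (chronic, both regions) were labelled female but had Ddx3y, a gene of the Y chromosome, at 5.72 log2 CPM in PFC and 6.28 in NAc. In the other 24 libraries labelled female it reached at most -0.20. The NAc library numbered 28 (chronic, labelled male) had Xist, a transcript of the inactive X chromosome, at 4.20, where the other libraries labelled male reached at most 1.77, and its part in the sex comparison was not tested. The label "neuron" is not a pure one: oligodendrocyte markers summed to between 4130 and 7397 CPM (counts scaled to library size) in PFC of saline mice. In NAc of saline mice, the summed markers of striatal projection neurons ran from 149.6 to 3203 CPM, so the punches differed in how much striatal RNA they held. Choroid plexus markers reached 3341 CPM in 1 chronic PFC library, against a median of 8.65 in that group. By edgeR, 0 markers of 11 cell types passed in any of the 6 comparisons with saline (before adjustment, 541 to 2785 genes lay under a p of 0.05), and 0 markers were at 0 in every library of a group.

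A further division of the libraries runs across the groups. In both regions 18 genes had levels in separate high and low ranges, and 6 of them (Gm10036, Gm10263, Gm10260, Gm12901, BC023719 and Gm18733) put the libraries of PFC and NAc into the same 2 states. The high state held all saline males, all chronic libraries, all 24 h females and 3 of 5 of the 24 h males. The low state held all saline females, all libraries at 2 weeks and the other 2 males at 24 h. This state is therefore partly confounded with stage and with sex. Values within 1 state are given below beside the results that it touches.

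Ccn1, Trib1, Ier2 and Klf4 belong to the genes whose transcripts appear and disappear quickly after a stimulus reaches a cell. In neurons such genes follow synaptic activity and calcium entry through factors such as CREB and SRF, and their RNA is short-lived, so its level is a reading of recent activity. Ccn1 encodes a secreted matricellular protein that binds integrins and is a known target of YAP and TEAD. Trib1 encodes a pseudokinase that brings the ubiquitin ligase COP1 to C/EBP proteins. Ier2 encodes a short nuclear protein of the immediate early response, and Klf4 a zinc finger transcription factor of stem cells, endothelium and neurons. Wwox is of another kind: it encodes an oxidoreductase with WW domains, spans a common fragile site, and its loss causes severe neurological disease.

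The genes differ widely in structure (GRCm38, GENCODE M21, all protein-coding). Ccn1 (ENSMUSG00000028195) lies at chr3:145646976-145649981 on the minus strand and has 5 exons. Trib1 (ENSMUSG00000032501) lies at chr15:59648350-59657099 on the plus strand with 3 exons. Ier2 (ENSMUSG00000053560), at chr8:84661331-84662852 on the minus strand, is a gene of 1 exon and 1522 bases. Klf4 (ENSMUSG00000003032) lies at chr4:55527143-55532466 on the minus strand with 5 exons in its longest transcript. Wwox (ENSMUSG00000004637), at chr8:114439655-115352708 on the plus strand, covers 913.1 kb. It overlaps 4 small genes on the other strand (Gm16116, Gm16117, Gm16118 and Gm22556), and since the sources used here do not say whether counting used strand, reads from these cannot be told apart from those of Wwox.

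The promoters of Ccn1 and Ier2, both lower in PFC at the same stages, are shown. Klf4 was lower there too, and its window was searched but is not shown. The sequence table available was that of the rat (RefSeq, GRCr8), in which 4 of the 5 genes were found. Each is the 250 bases before the transcription start, 5′ to 3′ on the gene's strand. Capitals mark a cAMP response element (TGACGTCA) or its shorter form TGACG, the TEAD motif GGAATG and the TATA motif TATAAA, on either strand.
Ccn1, chr2:237225690-237225939, minus strand: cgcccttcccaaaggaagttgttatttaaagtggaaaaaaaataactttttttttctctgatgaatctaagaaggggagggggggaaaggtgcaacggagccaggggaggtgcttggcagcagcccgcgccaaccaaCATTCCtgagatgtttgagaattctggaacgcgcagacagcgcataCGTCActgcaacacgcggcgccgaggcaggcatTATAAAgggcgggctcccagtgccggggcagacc
Ier2, chr19:40399123-40399372, plus strand: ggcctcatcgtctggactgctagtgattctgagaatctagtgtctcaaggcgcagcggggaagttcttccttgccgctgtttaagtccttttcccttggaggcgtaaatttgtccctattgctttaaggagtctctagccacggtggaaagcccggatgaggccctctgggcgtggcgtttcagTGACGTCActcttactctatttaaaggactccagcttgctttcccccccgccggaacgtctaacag
The Ier2 window held the whole palindrome TGACGTCA, which contains TGACG on both strands, starting 66 bases before the start. It was present in 1.7% of 27457 rat promoter windows of this length. The Ccn1 window held TGACG starting 67 bases before the start (in 19% of windows), GGAATG further upstream (11.8%) and TATAAA at 34 bases (13.1%). TGACG was also in the Wwox window and not in that of Klf4, which held TATAAA at 2 places, while neither held GGAATG. None of the 4 windows held the SRF site known as the CArG box (1.5%) or TGANTCA (6.36%), both searched on both strands. These are letters in rat sequence, and no binding was measured.

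Ccn1 had the largest fitted differences from saline of the 5 genes in PFC, where it was lower during chronic morphine and at 24 h and closer to its saline level at 2 weeks. In PFC of saline mice Ccn1 ranged from 3.63 to 5.21 log2 CPM with a median of 4.47 (n = 6). Under chronic morphine it ranged from 1.50 to 2.45 with a median of 2.10 (n = 8), and at 24 h from 1.76 to 3.41 with a median of 2.25 (n = 9). All 8 chronic and all 9 of the 24 h libraries lay below the lowest saline library. The fitted log2 fold change against saline was -2.35 ± 0.23 (SE) under chronic morphine, a ratio of 0.197, and -1.98 ± 0.22 at 24 h, a ratio of 0.253. Of all genes tested in PFC, 0.401% had every chronic library below every saline library and 0.139% had every 24 h library there, counts that the choice of the genes fixes in part. At 2 weeks Ccn1 ranged from 3.42 to 4.57 with a median of 4.07 (n = 7; -0.38 ± 0.23), with 2 of the 7 libraries below the lowest saline library.

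In NAc, Ccn1 was low in every group. It ranged from 1.92 to 2.63 log2 CPM in saline libraries (median 2.21, n = 7), from 1.57 to 2.15 under chronic morphine (median 1.83, n = 8) and from 1.48 to 2.43 at 24 h (median 1.95, n = 9). The groups overlapped, although 7 of the 8 chronic libraries lay below the lowest saline library. The log2 fold changes were -0.50 ± 0.15 (SE), -0.29 ± 0.14 and -0.11 ± 0.15 at the 3 stages. As bulk punches were measured, fewer cells of a type and less RNA per cell cannot be told apart for this or any other gene here.

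Trib1 was lower in PFC during chronic morphine and at 24 h, with almost no difference in NAc. In PFC it ranged from 5.74 to 6.74 log2 CPM in saline libraries (median 6.32), from 4.62 to 5.15 under chronic morphine (median 4.73) and from 4.62 to 6.08 at 24 h (median 5.17). All 8 chronic libraries and 7 of 9 at 24 h lay below every saline library. The log2 fold changes were -1.49 ± 0.14 (SE; ratio 0.357), -0.97 ± 0.13 and 0.06 ± 0.14 at chronic, 24 h and 2 weeks. In NAc the saline libraries ranged from 3.21 to 3.77 and the chronic ones from 2.79 to 3.75, and the effects were -0.02 ± 0.13, -0.07 ± 0.13 and -0.26 ± 0.13. At 2 weeks 7 of the 8 NAc libraries lay below the lowest saline library, with a highest value of 3.27.

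Ier2 was also lower in PFC during chronic morphine and at 24 h. Saline libraries there held 5.03 to 5.64 log2 CPM (median 5.35), chronic ones 3.14 to 3.96 (median 3.60), those at 24 h 2.90 to 5.22 (median 3.52) and those at 2 weeks 4.78 to 5.54 (median 5.14). All 8 chronic libraries and 8 of 9 at 24 h were below the lowest saline library. The exception at 24 h was the female library numbered 20, which also had the highest Ccn1 and Trib1 of that group. The log2 fold changes of Ier2 were -1.76 ± 0.20 (SE; ratio 0.296), -1.39 ± 0.19 and -0.21 ± 0.20. In NAc, Ier2 lay between 0.69 and 2.28 log2 CPM over all groups, with effects of -0.46 ± 0.17, -0.25 ± 0.16 and -0.13 ± 0.16. Counts behind these NAc values were as few as 51 per library, while each PFC library held 240 or more. The SEs in NAc were nevertheless not larger than those in PFC.

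Klf4 differed from the other 3 rapid genes in that it was higher in NAc at 24 h while it was lower in PFC. In PFC it ranged from 3.23 to 4.84 log2 CPM in saline libraries (median 4.36), from 2.84 to 3.61 under chronic morphine (median 3.01) and from 3.07 to 3.91 at 24 h (median 3.51). Since 1 saline library, numbered 1, was as low as 3.23, only 5 of 8 chronic and 2 of 9 of the 24 h libraries lay below all saline libraries. The PFC log2 fold changes were -1.04 ± 0.19 (SE), -0.67 ± 0.18 and 0.41 ± 0.19. In NAc the saline libraries ranged from 1.78 to 2.28 (median 2.02) and those at 24 h from 2.30 to 3.09 (median 2.60), so that all 9 lay above every saline library, as for 0.0544% of all genes tested in NAc. The NAc effects were -0.33 ± 0.16, 0.58 ± 0.16 and 0.27 ± 0.16. Markers of endothelium, where Klf4 is also made, summed to 118.9 to 183.5 CPM in NAc at saline and to 132.8 to 224.3 CPM at 24 h, and with a vascular marker score as a term the 24 h effect of Klf4 was 0.50. Markers of cortical projection neurons, whose region has more Klf4, summed to 7.52 to 40.3 CPM in NAc at saline and to 8.37 to 648.4 CPM at 24 h (medians of 22.3 and 29.6), and 0 of 5 passed. With the striatal minus cortical score as a term the effect was 0.57.

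Wwox was the 1 gene of the 5 that was higher in PFC under chronic morphine, and its effects there at 24 h and 2 weeks were smaller. Its PFC libraries ranged from 4.57 to 4.94 log2 CPM at saline (median 4.79), from 5.06 to 6.31 under chronic morphine (median 5.77), from 4.60 to 5.06 at 24 h (median 4.91) and from 4.34 to 4.82 at 2 weeks (median 4.47). All 8 chronic libraries lay above every saline library, as for 0.2% of genes tested. The chronic libraries were themselves divided: those numbered 26, 27, 28 and 29 lay between 6.04 and 6.31, and the other 4 between 5.06 and 5.51, with both sexes on each side. The log2 fold changes were 1.04 ± 0.17 (SE; ratio 2.05), 0.10 ± 0.16 and -0.27 ± 0.17. In NAc the saline range was 3.96 to 5.04 and the chronic range 3.51 to 4.57, with effects of -0.35 ± 0.16, -0.33 ± 0.16 and -0.15 ± 0.16.

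**Figure D1:**
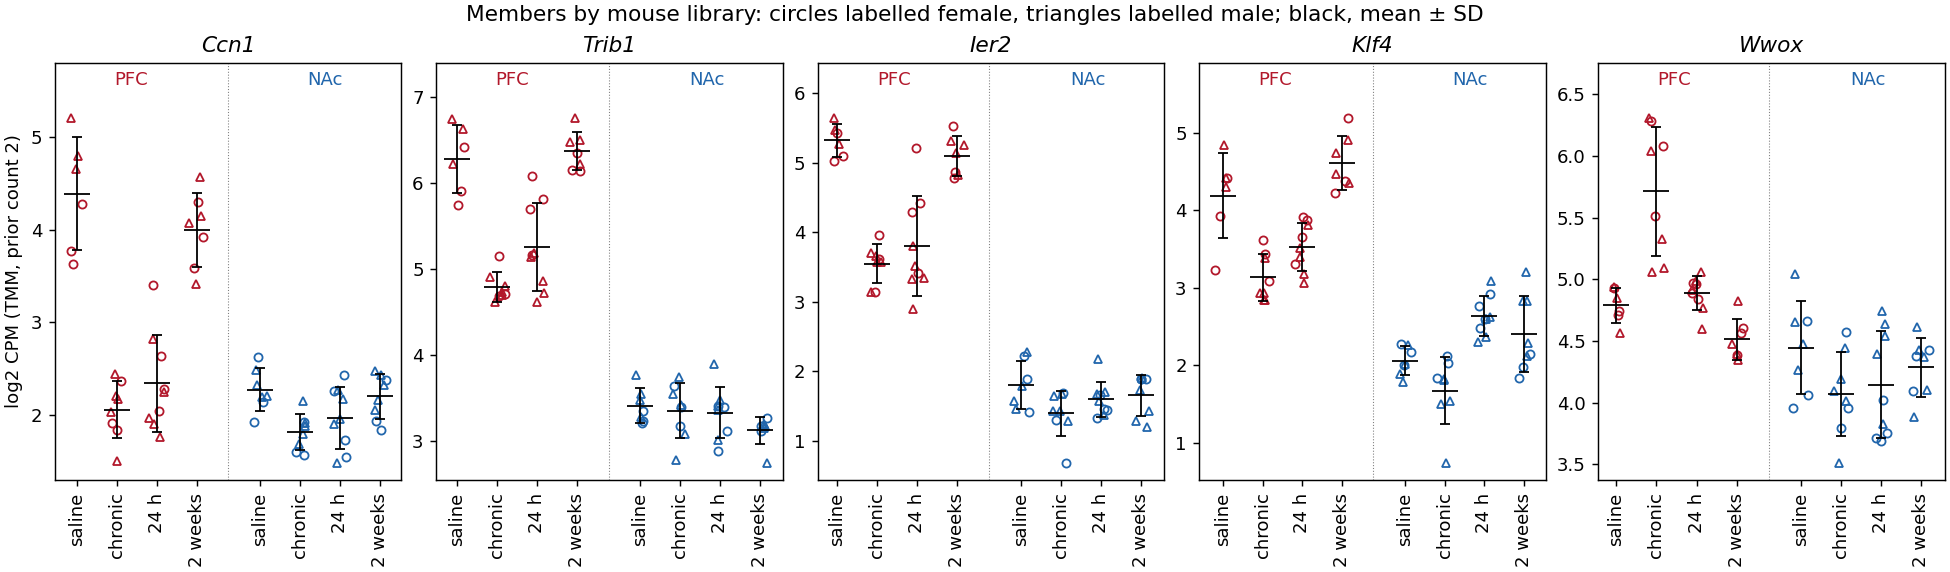
Each point is 1 mouse library, with log2 CPM on the vertical axis (its own scale for each gene) and the 4 treatment groups of PFC (left, red) and NAc (right, blue) on the horizontal axis; circles are labelled female, triangles male, and black bars show the mean ± SD. In PFC, Ccn1, Trib1 and Ier2 of all 8 chronic libraries lie below every saline library and Wwox above, while in NAc the groups of these genes overlap.

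Under chronic morphine and at 24 h the fitted difference between the regions was largest in size for Ccn1 among the 5 genes, while Trib1 had the largest joint F. The region difference, the stage effect in NAc minus that in PFC, was 1.86 ± 0.27 (SE) for Ccn1 under chronic morphine, 1.70 ± 0.26 at 24 h and 0.28 ± 0.27 at 2 weeks. For Trib1 it was 1.48 ± 0.19, 0.92 ± 0.19 and -0.31 ± 0.19. Both values for Ier2 during and just after morphine were positive as well, at 1.31 ± 0.26 and 1.15 ± 0.25, with 0.09 ± 0.26 at 2 weeks. Klf4 had a larger difference at 24 h (1.26 ± 0.24) than under chronic morphine (0.72 ± 0.25), and -0.13 ± 0.25 at 2 weeks. Wwox had the opposite sign, with -1.37 ± 0.23 under chronic morphine, -0.42 ± 0.22 at 24 h and 0.12 ± 0.24 at 2 weeks. At 2 weeks the differences of the 5 genes lay between -0.31 and 0.28.

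**Figure D2:**
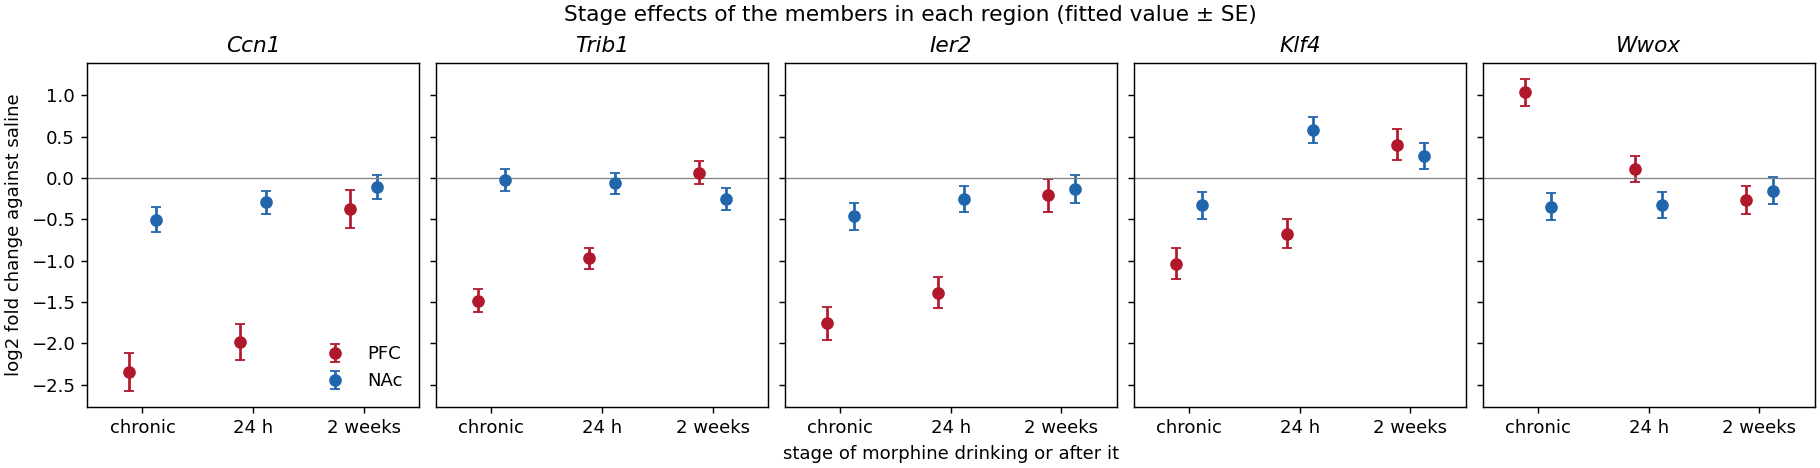
Points are fitted log2 fold changes against saline (vertical axis) at the 3 stages (horizontal axis) in PFC (red) and NAc (blue), with bars of ± 1 SE. The red and blue values stand apart at chronic morphine for all 5 genes and lie close together at 2 weeks.

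The joint test of the 3 stages by edgeR's quasi-likelihood method called 7 of 19266 genes, or 0.0363%, at a Benjamini-Hochberg adjusted p under 0.05. These were the 5 genes, which the rule had chosen in this way, and 2 more. Dusp1, a phosphatase that switches off MAP kinases and is itself a rapid response gene, had a region difference of 1.38 ± 0.26 (SE) under chronic morphine and 1.03 ± 0.25 at 24 h (edgeR adjusted p = 0.00728). Igsf6, an immunoglobulin family gene with at most 64 counts in any library and 0 to 15 counts in PFC at 2 weeks, had 0.46 ± 0.53 and 1.30 ± 0.51, with 4.46 ± 0.77 at 2 weeks (edgeR adjusted p = 0.00785). Dusp1 and Igsf6 were each called in 7 of 10 alternatives. Both were not called with additive sex terms (edgeR adjusted p = 0.0502 for Dusp1 and 0.998 for Igsf6) and with the state of the divided genes as a term (edgeR adjusted p = 1.0 and 0.114). The earlier fit, with additive terms for sex, called the 5 genes and neither of these. Genes just outside the threshold included Btg2 (adjusted p = 0.0844), H2-Q1 (0.109), and Arc and Trim58 (0.118 each, all by edgeR). The joint F was 14.9 for Ier2, the smallest of the 5, 12.8 for Dusp1 and 12.7 for Igsf6, the last inside the threshold, and 9.64 for Btg2 outside it.

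Ccn1, Trib1 and Ier2 had smaller effects in NAc under chronic morphine and at 24 h, and also lower NAc levels. Whether level and effect are related was not tested. At saline, PFC stood above NAc by 2.12 log2 units for Ccn1, 2.87 for Trib1, 3.52 for Ier2, 2.13 for Klf4 and 0.34 for Wwox. For the first 4 genes all 6 PFC saline libraries lay above the highest NAc library, and for Wwox none did. The share of all genes separated in this way between the regions, at saline or under chronic morphine, was not counted. Under chronic morphine the gap of Ccn1 was 0.24, with 4 of 8 PFC libraries above every NAc library. The gaps of Trib1, Ier2 and Klf4 were then 1.44, 2.15 and 1.46, still with all 8 PFC libraries above NAc. Wwox went the other way, with a gap of 1.64 under chronic morphine and 8 of 8 PFC libraries above all of NAc. Tissue content differs between the regions too: markers of cortical projection neurons summed to 2243 to 3321 CPM in saline PFC and to 7.52 to 40.3 CPM in saline NAc. Its part in the region differences was not tested beyond a covariate for the striatal minus cortical score within each region, with which the chronic differences were 1.86 (Ccn1), 1.54 (Trib1), 1.38 (Ier2), 0.72 (Klf4) and -1.26 (Wwox).

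All saline and chronic males were in the high state of the divided genes. Their chronic values are therefore the male part of the comparison that chose the genes. With the state as a term in the PFC fit, the chronic effects were -2.17 (Ccn1), -1.27 (Trib1), -1.52 (Ier2), -0.94 (Klf4) and 0.95 (Wwox). Among males of the high state in PFC, Ccn1 averaged 4.89 ± 0.29 log2 CPM at saline (SD, n = 3), 2.07 ± 0.35 under chronic morphine (SD, n = 5) and 2.04 ± 0.18 at 24 h (SD, n = 3). Trib1 averaged 6.53 ± 0.27, 4.75 ± 0.11 and 4.74 ± 0.12 in the same libraries, and Ier2 5.46 ± 0.19, 3.53 ± 0.23 and 3.19 ± 0.26. Klf4 averaged 4.52 ± 0.28, 2.99 ± 0.23 and 3.33 ± 0.23. In each of these 4 genes the 3 saline males lay above all of these chronic and 24 h males. Wwox averaged 4.78 ± 0.19, 5.56 ± 0.57 and 4.94 ± 0.15, and its lowest chronic male (5.06) lay above its highest saline male (4.94). The share of all genes with gaps like these between so few libraries was not counted.

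In NAc the same high-state males had chronic differences from saline of -0.42 for Ccn1, -0.20 for Trib1, -0.28 for Ier2, -0.50 for Klf4 and -0.56 for Wwox. Klf4 at 24 h was 0.44 above saline in them. Females of the low state allow saline to be set against 2 weeks (3 libraries each in PFC). There Ccn1 averaged 3.89 at saline and 3.94 at 2 weeks, Trib1 6.02 and 6.22, Ier2 5.19 and 5.06, and Wwox 4.79 and 4.52, while Klf4 averaged 3.86 and 4.59. No saline female was in the high state, so the state and chronic morphine cannot be told apart in females. With the state as a term in each region, which only the 5 males at 24 h can inform, 0 genes were called for the region difference (921 had an unadjusted p under 0.05 without that term). The chronic differences were then 1.81 for Ccn1, 1.06 for Trib1, 0.92 for Ier2, 0.84 for Klf4 and -1.47 for Wwox.

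The sexes were compared as well, which the choice of the genes did not use. In PFC, Trib1 had the smallest p of the 5 genes. Among PFC libraries at 24 h, Trib1 was at 5.17 to 6.08 log2 CPM in the 4 females and at 4.62 to 5.19 in the 5 males, and under chronic morphine at 4.85 ± 0.26 in females (SD, n = 3) and 4.75 ± 0.11 in males (SD, n = 5). Saline females averaged 6.02 ± 0.35 (SD, n = 3) and saline males 6.53 ± 0.27 (SD, n = 3). The log2 effect in males minus that in females was -1.30 ± 0.26 (SE) at 24 h. Over the 3 stages this gave an edgeR p of 9.53e-05 and an adjusted p of 0.132, so the difference did not pass. It passed with no low-count filter (adjusted p = 0.0490, edgeR) and with DESeq2 (adjusted p = 0.0115), and had 0.0646 without library 10 (edgeR). Its adjusted p without library 27 was 0.181 (edgeR).

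Ccn1 and Ier2 had differences of the same sign in PFC at 24 h, -1.50 ± 0.44 (SE, edgeR adjusted p = 0.865) and -1.35 ± 0.38 (SE, edgeR adjusted p = 0.623). Ier2 averaged 4.34 ± 0.74 log2 CPM in females at 24 h (SD, n = 4) and 3.38 ± 0.33 in males (SD, n = 5). Klf4 and Wwox had -0.90 ± 0.36 and -0.05 ± 0.31, and neither passed by edgeR. In NAc the edgeR adjusted p of the 5 genes ran from 0.453 (Klf4) to 0.877 (Ccn1). Over all genes edgeR called 0 sex differences of the stage effect in PFC (846 with an unadjusted p under 0.05, and 0.267% of all genes called by DESeq2) and 10 in NAc (0.0544%). The level averaged over treatments did not pass for any of the 5 genes either, with edgeR adjusted p of 0.946 or more in PFC, where 0.0334% of genes were called, and 0.918 or more in NAc, where 0.0598% were.

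At saline the female libraries were all in the low state and the males all in the high state, so sex and state cannot be told apart there. At 24 h all 4 females and 3 of the males shared the high state. Within it, Trib1 in PFC was at 4.62 to 4.86 log2 CPM in the 3 males and at 5.17 to 6.08 in the 4 females. This split was not tested, and the share of all genes with such a gap was not counted.

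**Figure D3:**
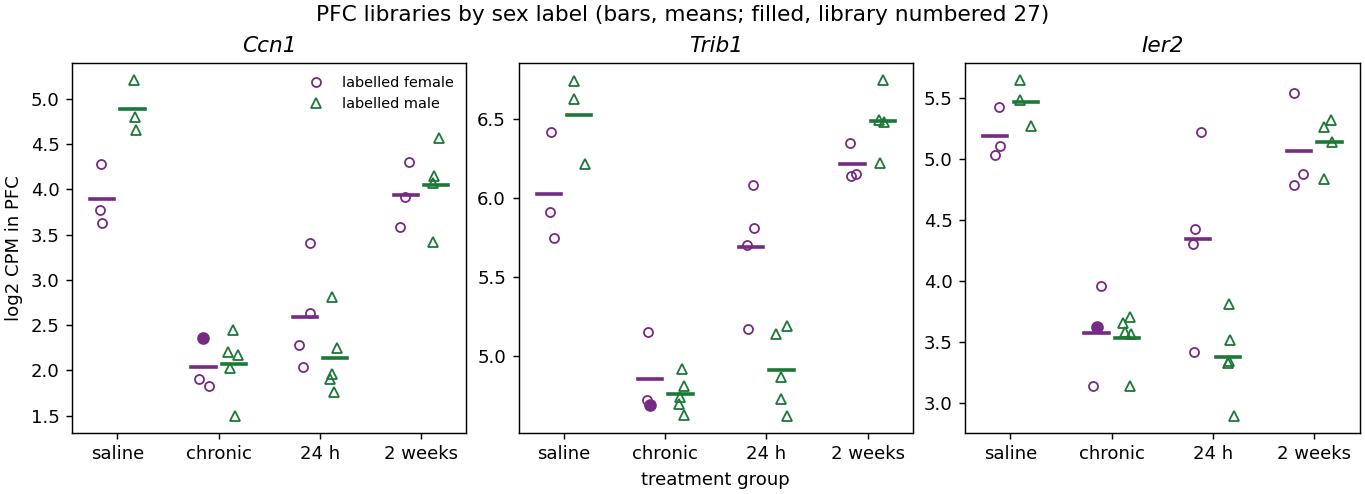
Points are PFC libraries by treatment group (horizontal axis), with log2 CPM of Ccn1, Trib1 and Ier2 on the vertical axes (own scale for each gene); purple circles are labelled female, green triangles male, bars are means, and the filled point is the library numbered 27. At 24 h the females reach up to 6.08 for Trib1 and 5.22 for Ier2 and the males up to 5.19 and 3.81.

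Whether the genes also varied together among libraries of the same group was asked after removing the mean of each treatment and sex group, which takes out the differences that chose them. In PFC, Trib1 and Ier2 had a Pearson r of 0.67 and a Spearman rho of 0.60 over 30 libraries. Their permutation p values were 0.00214 and 0.00416, adjusted to 0.0428 and 0.0832 over 20 pairs of genes and regions, so Pearson's r passed and rho did not. Without the 2 libraries farthest from the median in Trib1 r was 0.56 (permutation adjusted p = 0.116). Library 20, high in both genes, was not among those left out. Without library 10 alone r was 0.66 (permutation adjusted p = 0.0892). The pair passed in neither case, so the call was a borderline one. Within the high state r was 0.63 and rho 0.34 (n = 18), and within the low state r was 0.66 and rho 0.81 (n = 12).

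Ccn1 varied with Ier2 in PFC at an r of 0.55 and rho of 0.49 and with Trib1 at 0.52 and 0.48, each with a permutation adjusted p of 0.122 for r and 0.104 for rho. For Ccn1 and Ier2, r was 0.47 within the high state and 0.76 within the low state, and for Ccn1 and Trib1 it was 0.35 and 0.77. Spearman's rho in the high and low states was 0.28 and 0.78 for Ccn1 and Ier2, and 0.20 and 0.83 for Ccn1 and Trib1. In NAc, r of the same 3 pairs lay between 0.16 and 0.30 over 32 libraries, with permutation adjusted p of 0.279 or more, and the difference of these r from those in PFC was not tested. None of the 7 pairs in each region that involve Klf4 or Wwox passed, with r from -0.16 to 0.25 in PFC and from -0.37 to 0.42 in NAc.

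**Figure D4:**
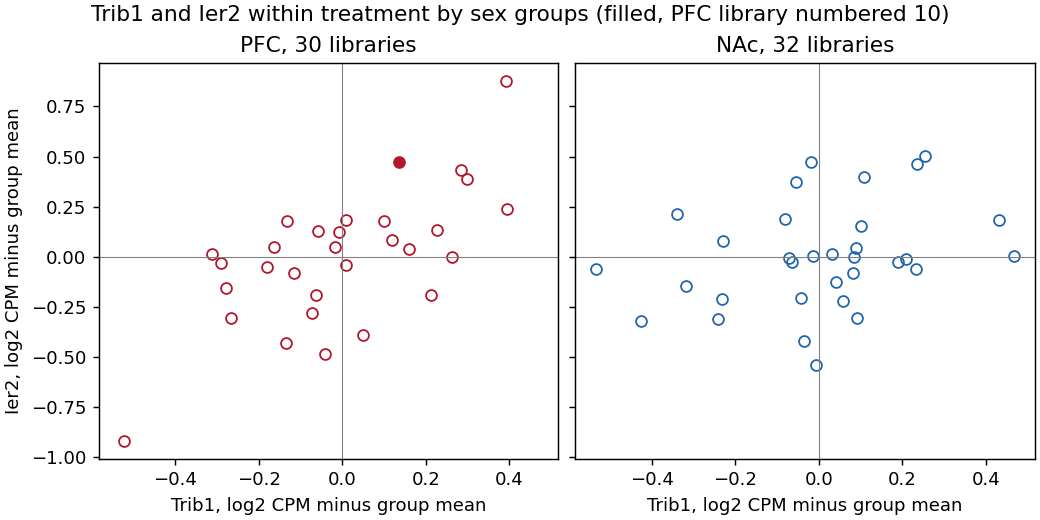
Each point is 1 library, with its deviation from the mean of its treatment and sex group in log2 CPM, Trib1 on the horizontal and Ier2 on the vertical axis, for the 30 libraries of PFC (left) and the 32 of NAc (right). The PFC points (r of 0.67) include 1 low in both genes and 1 high in both, and the filled point is the shallow library numbered 10.

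The rapid response genes as a group were lower in PFC. Of 28 further genes of this kind (transcription factors, phosphatases and other early genes, with Ccn1, Trib1, Ier2 and Klf4 left out), 17 fell in PFC under chronic morphine and 0 rose by edgeR, where 0.306% of all genes fell. The list's median log2 fold change was -1.04, beside 0.01 over all genes tested. At 24 h 8 of the 28 fell (0.0724% of all genes) with a median of -0.53, and at 2 weeks 0 passed (edgeR called 0.00557% of all genes, 905 lay under a p of 0.05 before adjustment, and DESeq2 called 0.0278%) with a median of -0.11. With the state as a term, 7 fell under chronic morphine.

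Egr2, a zinc finger factor induced by activity, had the largest fall of the list in PFC under chronic morphine, with -3.35 ± 0.32 (SE, edgeR adjusted p = 1.65e-07). Arc, which acts at synapses on AMPA receptor uptake, fell by 2.23 ± 0.22 (SE, edgeR adjusted p = 2.44e-07), and Fos, a part of the AP-1 factor, by 2.17 ± 0.19 (SE, edgeR adjusted p = 1.13e-07). Fos ranged from 6.16 to 7.40 log2 CPM in PFC saline libraries and from 4.20 to 5.20 in chronic ones, with no overlap. Of the 28, Egr2 alone had a larger difference than Ccn1 in PFC under chronic morphine. Egr3 was at 0.16 ± 0.23 and Jund at -0.04 ± 0.13 (SE), and neither passed.

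In NAc, 6 of the 28 fell under chronic morphine and 0 rose (0.908% of all genes fell), with a median of -0.41 beside -0.01 for all genes. Fos fell by 1.15 ± 0.19 (SE, edgeR adjusted p = 0.00201) and Btg2, an antiproliferative early gene, by 0.56 ± 0.13 (SE, edgeR adjusted p = 0.0205). The count of 6 was 3 without any 1 of the saline libraries 3 and 5 and the chronic libraries 26 and 27, 2 with the state as a term, and 11 with the striatal minus cortical score as a term. At 24 h 2 fell in NAc (0.0598% of all genes), 1 without saline library 1 and 0 without saline library 2, and at 2 weeks 0 passed (edgeR called 0.00544% of all genes, and 1183 lay under a p of 0.05 before adjustment). For the region difference, Dusp1 alone of the 28 passed, and the list's median difference under chronic morphine was 0.75, beside 0.00 over all genes. Without the 2 libraries numbered 27 Dusp1 did not pass (1.31, edgeR adjusted p = 0.0532).

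**Figure D5:**
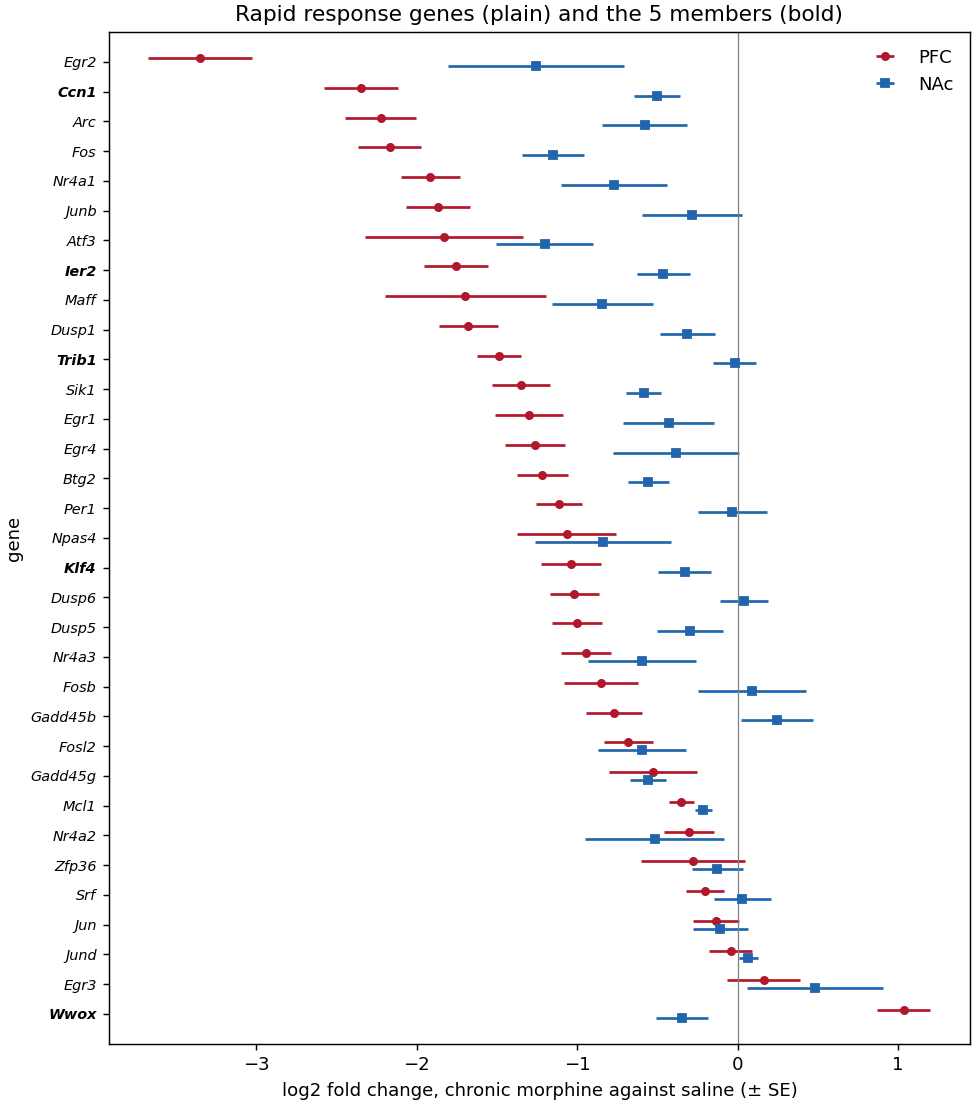
Points are log2 fold changes of chronic morphine against saline (horizontal axis, bars ± 1 SE) for the 28 rapid response genes and the 5 chosen genes (bold), ordered by the value in PFC (red circles; NAc, blue squares). In PFC, Ccn1 lies lower than all of the 28 but Egr2 and Klf4 lies at their median of -1.04, and in NAc Trib1 lies at -0.02 while Fos lies at -1.15.

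Few relatives of the genes by family passed a test, and none was tested against the gene it is related to. Of the other CCN genes, 0 of 4 tested passed in PFC and 0 of 5 in NAc at any stage by edgeR (under chronic morphine 1422 genes in PFC and 2785 in NAc lay under a p of 0.05 before adjustment). Ccn2, like Ccn1 a YAP and TEAD target, was at -0.11 ± 0.21 (SE) in PFC and 0.90 ± 0.26 (SE, edgeR adjusted p = 0.0692) in NAc under chronic morphine, and at 1.02 ± 0.25 (SE, edgeR adjusted p = 0.0934) in NAc at 24 h. Of 19 tested YAP, TEAD and MRTF factors and targets, Ccn2 among them, 0 passed at any stage in either region, with a median of 0.07 in PFC and 0.03 in NAc under chronic morphine. At 24 h the median of these 19 was -0.07 in PFC and 0.34 in NAc, where 3 of them were negative. The median of the other CCN genes in NAc at 24 h was 0.83, and that of all genes tested -0.01. Whether these medians differ from that of all genes was not tested. The other IER genes did not pass in PFC, and in NAc Ier3 fell by 0.42 ± 0.11 under chronic morphine (SE, edgeR adjusted p = 0.0467).

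Of the Tribbles list, which held Trib2, Trib3 and Trib1's partners Cop1, Cebpa and Cebpb, 0 of 5 passed in PFC, and the ligase gene Cop1 was at 0.16 ± 0.10 (SE) under chronic morphine there. In NAc Cebpb, a transcription factor that Tribbles proteins act on, fell by 0.54 ± 0.14 under chronic morphine (SE, edgeR adjusted p = 0.0459). Of 10 other KLF genes, 2 fell in PFC under chronic morphine and 0 rose. Klf2, the closest to Klf4 in function and a factor of vascular endothelium, fell by 0.89 ± 0.18 (SE, edgeR adjusted p = 0.0150) and Klf10, a TGF-beta early gene, by 1.04 ± 0.19 (SE, edgeR adjusted p = 0.00437). The endothelial markers that go with Klf2 and Klf4 in vessels summed to 229.0 to 273.4 CPM at saline in PFC and to 237.6 to 345.0 CPM under chronic morphine, and 0 of 8 passed.

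Around Wwox, 7 of 9 neighbours were tested and 1 rose in PFC under chronic morphine (0.111% of all genes rose). Cdyl2, a chromodomain gene 1222 kb beyond Wwox at chr8:116574400-116732991, ranged from 4.13 to 4.67 log2 CPM in PFC saline libraries and from 4.67 to 5.43 in chronic ones. All 8 chronic libraries lay above the highest saline library, the lowest by a narrow margin, and the fold change was 0.69 ± 0.16 (SE, edgeR adjusted p = 0.0483). In NAc it was at -0.12 ± 0.10 (SE). Of 10 other genes that are very large or span fragile sites, 0 passed at any stage in either region, with a median of -0.05 in PFC under chronic morphine.

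The genes most like each one were found by Pearson's r over the 62 libraries after removing the region mean, among 12984 genes. These r are descriptions, since the libraries share groups, states and depth. Ccn1 was most like Ier2 (0.86), Btg2 (0.85) and Trib1 (0.82), and Trib1 most like Ier2 (0.85), Ccn1 and the salt-inducible kinase Sik1 (0.80). Ier2 was nearest to Ccn1, Trib1 and Dusp1 (0.81). For these pairs r was 0.91 to 0.97 in PFC and -0.04 to 0.51 in NAc. Group means were not removed here, so the stage differences that chose the genes enter these r. With group means removed, r among Ccn1, Trib1 and Ier2 in PFC was 0.52 to 0.67. Klf4 was most like Klf2 (0.79), Bcl6b (0.70) and Stk40 (0.68), with r for Klf2 of 0.80 in PFC and 0.76 in NAc. Wwox stood with other genes altogether: Atp13a2, a lysosomal transporter (0.73), Plbd2 (0.73) and Ube2j1 (0.72), with r of 0.65 to 0.70 in PFC and 0.81 to 0.90 in NAc. Bcl6b, a transcriptional repressor of endothelial cells, fell in PFC under chronic morphine (-1.67 ± 0.28, SE, edgeR adjusted p = 0.00132), and none of the 3 genes nearest to Wwox passed there.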

How the data were processed

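The mouse data are counts of reads per gene as the authors deposited them, not normalized, in 1 table whose columns are the libraries. The submitters' processing notes name FastQC, cutadapt, STAR, RSEM, Trimmomatic, HISAT2 and GRCm38 (with Rnor_6.0 for rats), without saying which tool made this table, and strandedness is not given in the sources used here. Reads assigned to no gene (medians of 5.43% outside genes, 0.57% not aligned and 14.7% not unique) and the reporter rows stayed out of library sizes and tests. Symbols were matched for 45143 of 46078 identifiers.

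Counts were fitted with edgeR 4.0.16 (quasi-likelihood, TMM, filterByExpr) in R 4.3.3 with limma 3.58.1. The region test used 16 means (region by treatment by sex), and each region was also fitted alone by treatment and sex. Fold changes are averages over the sexes. A gene is said to be called, to pass, to rise or to fall at a Benjamini-Hochberg adjusted p under 0.05 over all genes tested. Log2 CPM used a prior count of 2, and permutation tests drew 100000 permutations of libraries within groups. On simulated data with 200 of 19266 genes changed, the region test recovered 62.7% of 1.5-fold, 94% of 2-fold and 100% of 4-fold changes, with 10 false calls. The simulated dispersion came from a set formula and was not estimated from these counts, so these shares are not the power in the real data. In the real fit Klf10, with a chronic region difference of 1.00 ± 0.29 (SE), was not called (edgeR adjusted p = 0.801).

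The 5 genes, the lists and the marker lists were chosen with earlier results of these data known. Named genes were, for each of the 5, the 3 with the highest r (mean log2 CPM of 1 or more), for each list up to 4 with the smallest p for the region difference, and the 5 next outside the threshold, of which 1 is not reported here. Other genes named (Fos, Egr2, Egr3, Jund, Cop1 and the divided genes) were chosen after their values were seen. Same-numbered PFC and NAc libraries (30 pairs) had correlations of deviations from group means of -0.04 to 0.29. In all 30 pairs 13 of the 18 genes with separate levels had the same level. The labels do not say that a number is an animal, so the region test did not pair the libraries. A fit with the number as a block is given below. Alternatives, of which 6 kinds were added after seeing the data, were DESeq2 1.42.0, its size factors alone, all genes kept whatever their counts, marker scores, the state of the divided genes and library 10, 27 or each library left out. The planned rat comparisons could not be run, since 0 rat identifiers could be paired with names.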

Additional observations from a re-analysis of the deposited data

Results flagged for a closer look

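Of 40 groups of NAc and PFC libraries examined for the 5 genes, 4 held a library far from the rest, where chance alone gives about 1 in 20 groups. In NAc at 2 weeks, Trib1 of library 12 was at 2.75 log2 CPM and the nearest other library at 3.12. In NAc at 24 h, Ier2 of library 22 was at 2.18, above the next at 1.70. In NAc under chronic morphine, Ier2 of library 27 was at 0.69, below the next at 1.28, and this is the library whose sex label did not match its Ddx3y. Klf4 of library 31 in the same group was at 0.74, below all other libraries of its group. Leaving library 27 out moved the chronic effect of Ier2 in NAc from -0.46 to -0.34, and leaving library 31 out moved that of Klf4 from -0.33 to -0.26.

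Of genes other than the 5, Dusp1 and Igsf6 differed between the regions by edgeR's joint test, each in 7 of 10 alternatives. The chronic difference of NAc from PFC was 1.38 for Dusp1 and 0.46 for Igsf6. In PFC, Dusp1 ranged from 6.42 to 7.08 log2 CPM at saline and from 4.54 to 5.74 under chronic morphine, with 8 of 8 chronic libraries below saline. In NAc the ranges of these groups overlapped, with highest values of 4.95 at saline and 4.62 under chronic morphine. Igsf6 had 0 to 15 counts in the PFC libraries at 2 weeks.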

How the results depend on the processing

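The values of the 5 genes are descriptions here too, since the region difference chose them. With the state of the divided genes as a term 0 genes were called for the region difference and the chronic values were 1.81 (Ccn1), 1.06 (Trib1), 0.92 (Ier2), 0.84 (Klf4) and -1.47 (Wwox). The cause was not tested, and the term rests on 5 males. With each library left out in turn the values were 1.75 to 1.95 (Ccn1), 1.37 to 1.56 (Trib1), 1.16 to 1.41 (Ier2), 0.56 to 0.85 (Klf4) and -1.53 to -1.27 (Wwox). With the replicate number as a block (replicate block, same-numbered libraries only), 0.0363% of genes were called, while Igsf6 did not pass (0.31, edgeR adjusted p = 0.0961). A blocked earlier fit with additive terms, which did not call Ier2 and Klf4, was not repeated here. Of 30 same-numbered pairs, 19 had a correlation over 0.1 (median 0.12) and 7 correlated best with their own number, while 13 of the 18 genes with separate levels had the same level in both libraries of all 30 pairs.

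Counts over all genes moved more, and are given as a percent of the genes tested in the reported fit of that comparison. For the region difference, 0.0363% became 0.145% with DESeq2, 0.0571% without library 10 of PFC, and 0.0363% to 0.0571% with each library left out. In PFC under chronic morphine, 0.417% became 0.963% with DESeq2, 0.991% without library 10, 0.0612% with the state, and 0.256% to 0.991% with 1 library left out (0.256% without saline 1, 0.262% without saline 6 or chronic 28). At 24 h in PFC, 0.0779% became 0.167% with the striatal minus cortical score or without library 10, 0.256% with DESeq2, 0.0501% with the state, and 0.0612% to 0.167% with 1 left out. At 2 weeks in PFC, 0.00557% became 0% with no filter, 0.0278% with DESeq2, 0.0111% with the state, and 0% to 0.00557% with 1 left out (0% without library 8 or 9). In NAc under chronic morphine, 1.69% became 1.01% with no filter, 2.95% with the striatal score, 0.653% without library 27, 3.76% with DESeq2, 0.598% with the state, and 0.653% to 3.08% with 1 left out (0.729% without saline 1, 1.01% without saline 6, 3.08% without chronic 25). At 24 h in NAc, 0.163% became 0.0762% with no filter, 2.53% with the striatal score, 0.0816% with the vascular score, 0.718% with DESeq2, 0.343% with the state, and 0.0163% to 0.267% with 1 left out (0.0163% without saline 1, 0.0326% without saline 2, 0.0816% or less without saline 3, 4, 6 or 7 or libraries 18 or 21, and 0.267% without library 17). At 2 weeks in NAc, 0.00544% (1 gene) became 0.0326% with the striatal score, 0.0163% with the vascular score, 0.163% with DESeq2, 0.0707% with the state, and 0.00544% to 0.0272% with 1 left out.

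Sex differences of the stage effect in PFC went from 0% to 0.15% with no filter, 0.0612% without library 10, 0.267% with DESeq2 and 0.0167% with the state, and Trib1 passed with no filter (-1.29) and DESeq2 (-1.25). In NAc they went from 0.0544% to 0% without library 27, 0.506% with DESeq2 and 0.0218% with the state. The r of Trib1 and Ier2 in PFC did not pass without the 2 farthest libraries (0.56) or library 10 (0.66), which left 0 pairs called each time. Counts in NAc were as few as 51 for Ier2 and 54 for Klf4, and the part of depth in these values was not tested.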
